A study of Mus musculus with 7 samples.

Results

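Glucagon and the other hormone genes of islet cells that are not β-cells were followed in islet RNA-seq of second-generation (F2) male mice. The genes were chosen by name for their place in islet biology, with earlier results of these data known, and were matched to Ensembl identifiers through GENCODE M21. They are Gcg, Sst, Ppy, Pyy and Ghrl, which encode peptide hormones, and Ttr, which encodes a carrier protein made by α-cells. All 6 were among the 21899 genes in each file. The labels give 3 control-F2 and 4 AE-F2 samples, of which replicate 1 of the controls and replicate 4 of the AE-F2 group are used, while the others were not analysed here. Wherever a pair of values follows, the control-F2 value comes first and the AE-F2 value second.

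AE stands for androgen exposure. The titles of the AE-F2 samples begin with HA, which the paper's supplement uses for hyperandrogenism. Pregnant wild-type C57BL/6 J founder dams were injected with dihydrotestosterone in late gestation for the AE lineage, or with the benzyl benzoate and corn oil vehicle for the control lineage. Their sons (F1) developed during that exposure and were bred with unrelated wild-type females, and the F2 sons of those matings received no androgen themselves. The F2 mice of both groups carried no transgene or engineered allele. Islets were freed from the pancreas with collagenase and separated on a gradient. How many mice each library holds and their age are not given in the sources used here. With 1 library per group analysed here, the spread between animals cannot be estimated, so each value below describes 2 libraries and no difference has a replicate check.

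Islets mix several endocrine cell types. α-cells cut proglucagon into glucagon, which raises blood glucose, and the same precursor gives glucagon-like peptides in gut cells and in part in islets. δ-cells release somatostatin, which restrains both insulin and glucagon release. PP cells make pancreatic polypeptide, ε-cells make ghrelin, and peptide YY, a relative of pancreatic polypeptide, is made in several islet cell types. Transthyretin, the product of Ttr, carries thyroxine and retinol-binding protein and is abundant in α-cells.

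The starts of the 4 most abundant hormone genes of the group are shown because the results turn on these genes. Gcg lies on chromosome 2 (GRCm38, 62474530 to 62483650, minus strand), Sst on chromosome 16 (23889573 to 23890958, minus strand), Ppy on chromosome 11 (102099930 to 102101319, minus strand) and Pyy on the same chromosome (102106676 to 102107832, minus strand). Ppy and Pyy are neighbours with 5356 bases between them. The sequences are RefSeq promoter sequence (GRCm38.p6), given 5′ to 3′ on the gene's strand. For Gcg, Ppy and Pyy they are the 100 bases before the RefSeq start, and for Sst they are 30 bases from 59 to 30 bases before it. GENCODE M21 places the start of Sst further upstream than RefSeq does, so the Sst stretch lies inside the annotated gene and was kept short. Capitals mark matches to TATAAA, the usual form of the TATA box, to TGACGTCA, the cAMP response element, or to CAGATG, an E-box, on either strand.
Gcg, chr2:62483654-62483753: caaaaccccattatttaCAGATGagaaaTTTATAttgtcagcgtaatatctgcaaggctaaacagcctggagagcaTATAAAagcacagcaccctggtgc
Ppy, chr11:102101320-102101419: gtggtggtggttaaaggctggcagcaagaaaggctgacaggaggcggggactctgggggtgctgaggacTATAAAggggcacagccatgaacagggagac
Pyy, chr11:102107833-102107932: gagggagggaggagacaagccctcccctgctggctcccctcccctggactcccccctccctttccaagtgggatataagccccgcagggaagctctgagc
Sst, chr16:23890874-23890903: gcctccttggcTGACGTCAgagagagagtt

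TATAAA stood on the gene's strand in Gcg, from 24 to 19 bases before the start, and in Ppy, from 31 to 26 bases before it. Of 32851 mouse promoters, 12.4% held TATAAA on either strand within 250 bases before the start, and 3.50% within the last 50 of these. The Sst stretch held TGACGTCA, which 1.55% of promoters held, and the Gcg promoter held CAGATG, which 14.4% held. A homeodomain-type motif, TAATTA, was searched too and had no match in these promoters. These matches describe the letters only.

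The control-F2 library held 16285888 estimated counts and the AE-F2 library 21278513, so counting error is smaller in the latter for a gene at the same level. Levels are given in CPM, counts scaled to one common library total. Libraries were compared by a log2 ratio, AE-F2 divided by control-F2, after TMM scaling, with a 95% interval that covers counting error only. PCR copies are not independent molecules, and the interval leaves out the spread between animals. Genes of other cell types also differed between the preparations. The summed level of 11 immune genes was 166 and 587 CPM, with the antibody genes Ighm at 51 and 5376 counts and Igkc at 9 and 1820, while Cd3e, a T-cell marker, had 0 and 10. The macrophage genes Cd68, at 47 and 57 counts, and Adgre1, at 50 and 66, had log2 ratios of -0.11 and 0.015, both with intervals that held equality. For 8 mesenchymal genes the median log2 ratio was 0.97, with Col1a1 at 102 and 313 counts, and their summed level, most of it Rgs5, was 252 and 306 CPM. Of 16 acinar genes past the minimum count given below, 15 were lower in the AE-F2 library and 1, Amy2a5, was higher (log2 ratio 0.63). Over all genes 50.0% were higher. The summed level of the acinar list was 3143 and 2742 CPM. The part of these cells in the results below was not tested.

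Per length of transcript, the order of the 6 genes was the same in both libraries. In CPM per kb, which allows levels of different genes to be compared, Gcg was at 14749 and 20201, below Ins2, Ins1 and Iapp, the β-cell genes for the insulins and amylin. Ppy was at 4125 and 4068 CPM per kb and Sst at 4009 and 3978. These neighbours in the order were close, and before division by length their order was the reverse, with Sst at 2890 and 2868 CPM and Ppy at 2062 and 2034 CPM. Pyy followed at 2034 and 2197 CPM per kb and Ttr at 1191 and 1341. Ghrl was far below at 3.93 and 2.53 CPM per kb. By counts alone, Gcg ranked 4 among all genes in the controls and 3 in the AE-F2 library, where it passed Iapp.

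**Figure D1:**
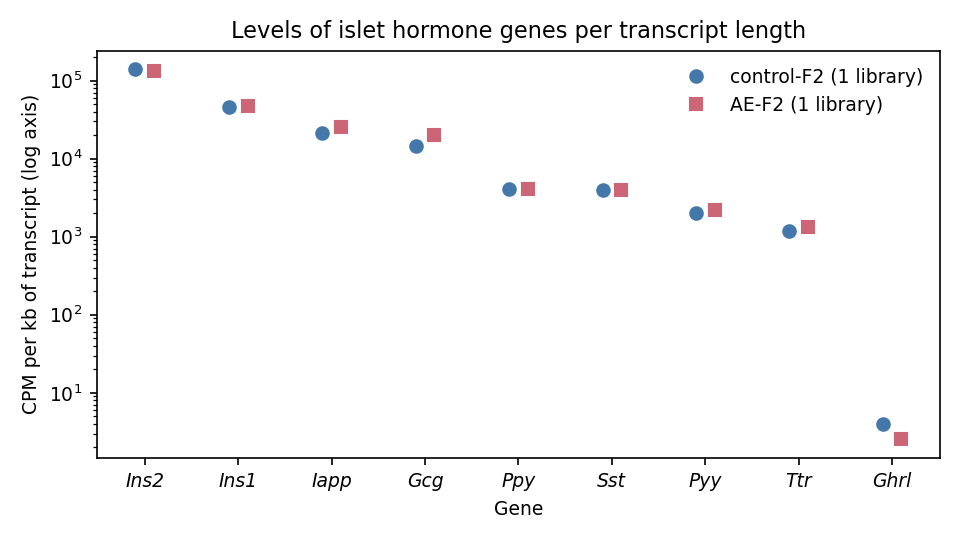
Level of each gene in CPM per kb of its longest transcript (log axis) in the control-F2 library (circles) and the AE-F2 library (squares), ordered by the control-F2 level. Gcg stands below the 3 β-cell genes and above Ppy and Sst in both libraries, and Ghrl lies far below the rest.

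Gcg (ENSMUSG00000000394) was read 261338 and 467676 times. These counts came to 16047 CPM (interval 15985 to 16108) and 21979 CPM (21916 to 22042). Glucagon mRNA was thus the gene of the group with the highest ratio, 1.37-fold, which is 0.46 on the log2 scale (0.45 to 0.46). Under the 9 other settings tried, its log2 ratio ran from 0.21 to 0.474. The lowest value came with trends of the ratio with GC content and transcript length removed. Most of the other settings can move a ratio of this size only slightly.

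Ttr (ENSMUSG00000061808) had 23010 and 33830 counts, or 1413 and 1590 CPM. Its log2 ratio of 0.17 (0.15 to 0.20) was less than that of Gcg, although α-cells are the main islet source of both. With the trends with GC content and length removed the ratio of Ttr turned to -0.045. Within a library, Gcg stood at 11.4 and 13.8 counts for each count of Ttr, a quotient 1.22-fold higher in the AE-F2 library that no scaling between libraries can change.

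Sst (ENSMUSG00000004366) had 47074 and 61030 counts. Its log2 ratio was -0.007 with an interval from -0.025 to 0.010. Ppy (ENSMUSG00000017316) had 33588 and 43280 counts, with a log2 ratio of -0.016 (-0.037 to 0.0045). The hormones of δ-cells and PP cells were therefore within counting error of equal shares of both libraries. With the trends with GC content and length removed, their ratios were -0.276 and -0.407. Pyy (ENSMUSG00000017311) had 18381 and 25940 counts, 1129 and 1219 CPM, and a log2 ratio of 0.12 (0.088 to 0.14) that turned to -0.227 with the trends with GC content and length removed.

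Ghrl (ENSMUSG00000064177), on chromosome 6 (113716119 to 113719880, minus strand), had 57 and 48 counts. These came to 3.50 CPM (2.65 to 4.53) and 2.26 CPM (1.66 to 2.99), a log2 ratio of -0.63 with a wide interval, from -1.21 to -0.05, that came close to equality. Ghrl overlaps Gm26982 and Gm44033 on the opposite strand, and the counting is not stated to use strand, so reads of these genes cannot be told apart from those of Ghrl. Mboat4, the enzyme that attaches the fatty acid that ghrelin needs, had 0 and 1 count, and Ghsr, the ghrelin receptor, which δ-cells carry, had 67 and 94.

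All 6 genes passed the minimum mean of 10 counts, and their deposited values were whole numbers in both libraries, unlike those of Ins1 and Ins2. None reached 2-fold, a rule that 3.16% of the 13627 genes past the minimum met upward and 0.653% downward. For 3 of the 6 (Gcg, Ttr and Pyy) the interval stood wholly above equality, against 13.4% of all genes, and for 1 (Ghrl) wholly below it, also against 13.4%. That interval narrows with depth. In the 118 genes averaging 10000 counts or more, to which all of the group but Ghrl belong, it was wholly above equality for 39.8% and wholly below for 42.4%. The 3 of 5 members above are to be read against that share. By size of the ratio, Gcg was at least 25% higher, as were 11.3% of all genes and 2.54% of the abundant ones. Ghrl was at least 20% lower, as were 6.85% of all genes. Of the abundant ones 5.08% were that much lower and 0.847% were at least 2-fold lower, none of them in the group. Of the abundant genes only Amy2a5, an acinar amylase gene, had a higher log2 ratio (0.63). Of the 118, 11 had a higher ratio than Ttr and 17 a higher one than Pyy, while Sst and Ppy lay near the median of -0.01, with 56 and 61 genes above them.

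**Figure D2:**
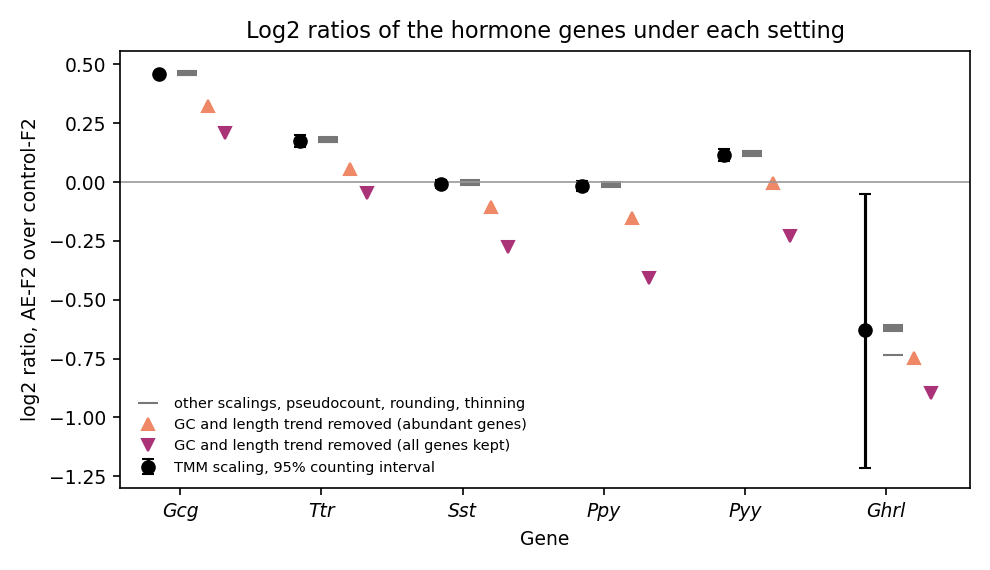
Log2 ratio (AE-F2 divided by control-F2) for each gene. Circles with bars give TMM scaling with the 95% counting interval, dashes the other scalings, pseudocount, rounding and depth, and triangles the ratios with trends with GC content and length removed. Gcg stays above 0 under each setting, Ttr and Pyy do not, and the bar of Ghrl is the widest.

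The longest annotated transcripts run from 500 bases (Ppy) to 1186 bases (Ttr), which is short, and short mRNAs were on the whole higher in the AE-F2 library. For genes averaging 1000 counts or more, the median log2 ratio was 0.17 for the 19 genes of up to 600 bases, 0.09 for the 121 genes of 600 to 1200 bases and -0.04 for the 1311 genes of over 4800 bases. These length classes were chosen after the data were seen, and mitochondrial transcripts such as mt-Nd1 (0.34) are among the short ones. Beside other genes of its class, Gcg had a higher ratio than 119 of 120, with B2m above it, which encodes the light chain of MHC class I. Ttr was higher than 90 of 120 and lower than 30, and Pyy was higher than 5 of 18 and lower than 13. Sst was lower than 97 of 120 other genes of its class, and Ppy lower than 15 of 18. Trends with length were removed only together with those with GC content, so the part of length alone was not tested.

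**Figure D3:**
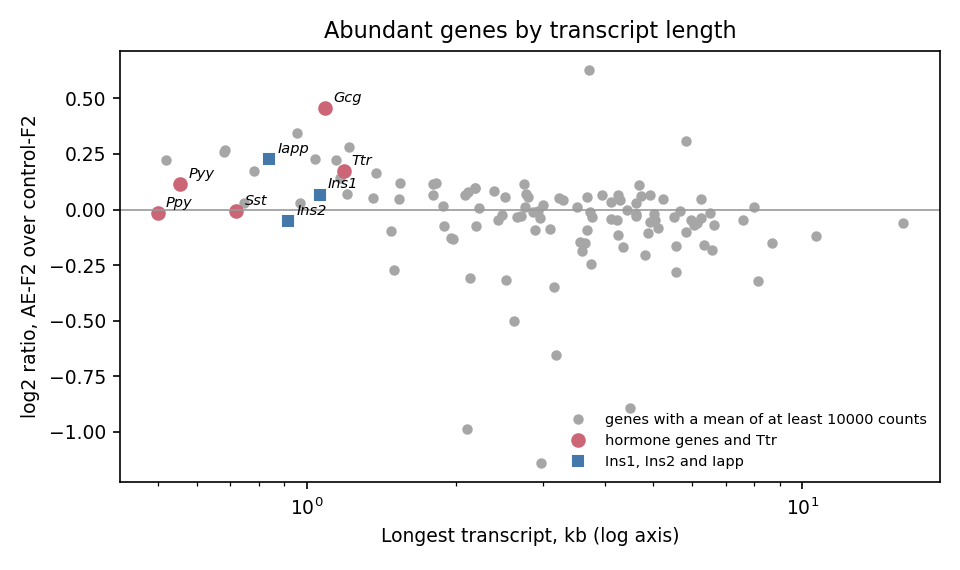
Log2 ratio (AE-F2 divided by control-F2) against the length of the longest transcript (log axis, kb) for the 118 genes averaging 10000 counts or more. Gcg lies above the other transcripts near its length, while Sst and Ppy lie at 0 with most other short transcripts above them.

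The make-up of the hormone mRNA within each library does not depend on scaling between libraries. Of the 360438 counts on Gcg, Sst, Ppy, Pyy and Ghrl in the control-F2 library, Gcg took 72.5% (95% Clopper-Pearson interval 72.4 to 72.7). Of 597974 in the AE-F2 library it took 78.2% (78.1 to 78.3). The share of Sst was 13.1% and 10.2%, that of Ppy was 9.32% and 7.24%, and that of Pyy was 5.10% and 4.34%. Ghrl took 0.016% and 0.0080%. Per kb of transcript, Gcg took 59.2% and 66.4%. Since the shares add up to the whole, a larger share of Gcg lowers those of the others, so the quotients between the other genes are given too. Sst stood at 1.40 and 1.41 counts for each count of Ppy, a log2 change of 0.009 (-0.02 to 0.04). Ppy against Pyy went from 1.83 to 1.67, a log2 change of -0.13 (-0.17 to -0.10).

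**Figure D4:**
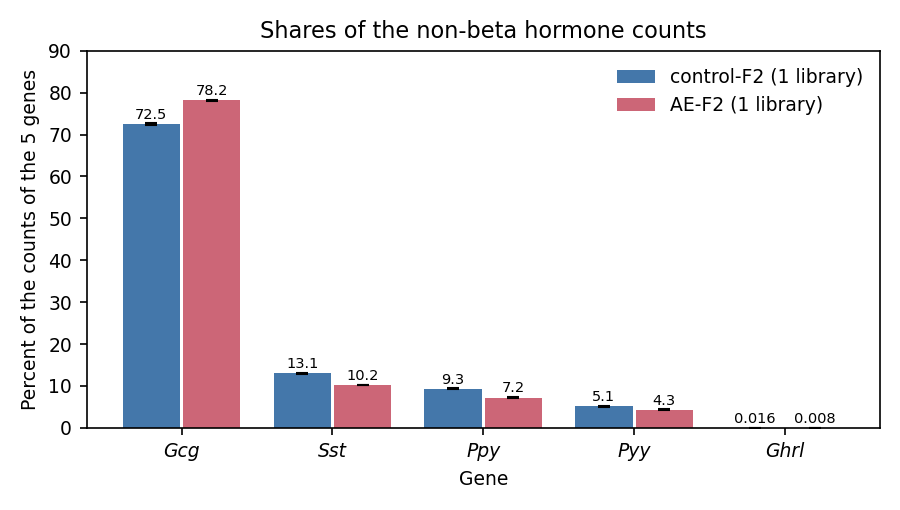
Share of each gene in the summed counts of the 5 hormone genes, in percent, for both libraries. Bars start at 0, and error bars are 95% Clopper-Pearson intervals. Gcg takes 72.5% and 78.2%, and each other gene takes less in the AE-F2 library.

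The hormones were also set against insulin within each library. Counts of Gcg for each count of Ins1 and Ins2 together were 0.0905 and 0.126, 1.39-fold higher, a log2 change of 0.47 (0.47 to 0.48). For Sst this quotient was 0.0163 and 0.0164, and for Ppy it was 0.0116 in both. It was 1.10-fold higher in the AE-F2 library for Pyy and 1.14-fold higher for Ttr, and for Ghrl the log2 change was -0.61 (-1.17 to -0.06). The sum of Ins1 and Ins2 took 17.7% and 17.5% of all counts. It is used in place of either gene because reads can be divided between them. In bulk tissue, more α-cells and more Gcg mRNA per α-cell cannot be told apart.

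Other markers of the same cells were set beside the hormones, from lists chosen with earlier results of these data known. Of 12 further α-cell markers, 11 passed the minimum count, and 7 were higher and 4 lower in the AE-F2 library, with a median log2 ratio of 0.09, none past 2-fold. Over all 13627 genes, 50.0% were higher. The interval lay above equality for 3, against 13.4% of all genes, among them Gc, the vitamin D-binding protein (176 and 184 CPM), and Slc38a5, an amino acid transporter (6.63 and 8.55). It lay below equality for 1, Gcgr, also against 13.4%. The most abundant members, Slc7a2 (log2 ratio -0.04) and Tm4sf4 (-0.03), and the glucagon receptor gene Gcgr, at 29.9 and 26.2 CPM (-0.19, -0.37 to -0.01), did not have the ratio of Gcg. As a sum the list was at 1115 and 1111 CPM, a log2 ratio of -0.001 (-0.03 to 0.03). No α-cell marker past the minimum count had a ratio above that of Gcg. The nearest was Slc38a5 at 0.37 (0.02 to 0.73).

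Of 6 δ-cell markers other than Sst, 5 passed the minimum count and 4 were higher, with a median log2 ratio of 0.06. The ratio of their summed counts had the other sign, at -0.11 (-0.17 to -0.04), with 221 and 205 CPM. Hhex, a transcription factor of δ-cells, had a log2 ratio of 0.004, and Rbp4, the retinol carrier that binds transthyretin, of 0.06, both with intervals that included equality. Lepr, the leptin receptor gene, had 38 and 91 counts and a ratio of 0.87 (0.32 to 1.46), and Casr, the calcium-sensing receptor gene, had a ratio of -0.31 (113 and 91.1 CPM). Of 4 PP cell markers 3 passed, none with an interval off equality, and their median was -0.03, with Etv1 at 74.5 and 72.6 CPM and Fxyd3 at 8.84 and 8.88. Of 12 β-cell markers, 10 had an interval below equality and 2 above it (Ins1 and Iapp), with a median of -0.10. Over all genes 13.4% had an interval below equality, and among the abundant ones 42.4% did, with 39.8% above. The sum of the β-cell list, most of it Ins1 and Ins2, had a log2 ratio of 0.002. Iapp was at 18135 and 21187 CPM.

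**Figure D5:**
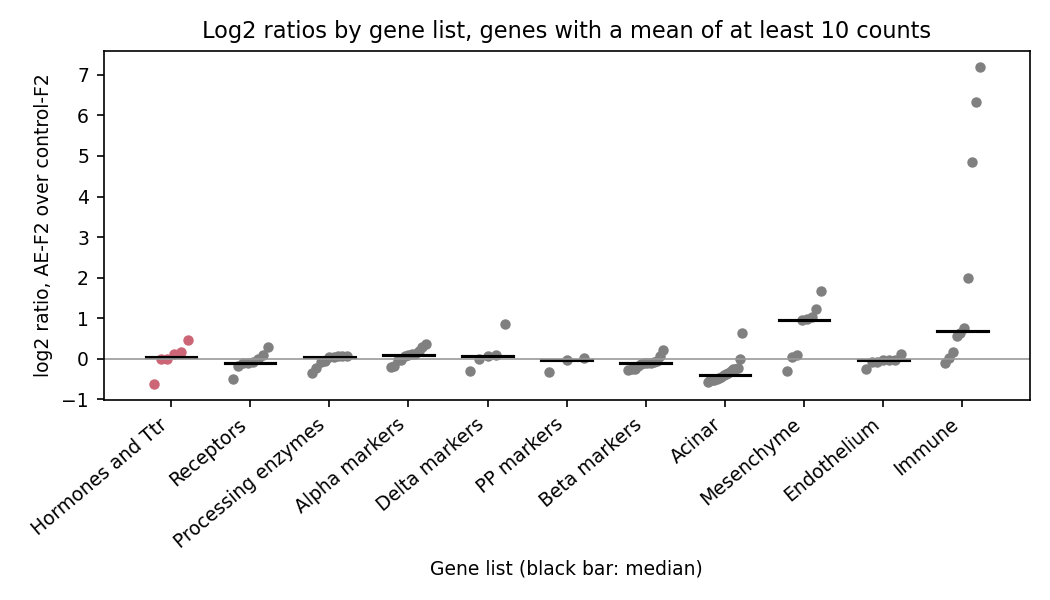
Log2 ratio (AE-F2 divided by control-F2) of each gene past the minimum count, by list, with black bars at the medians. The medians of the islet endocrine lists lie close to 0, though Lepr of the δ-cell list is at 0.87, acinar genes lie mostly below 0, and the immune and mesenchymal lists reach furthest above it.

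The receptors and the enzymes that finish the hormones were described in the same way. Of 13 genes for receptors of glucagon, the incretins, somatostatin, the pancreatic polypeptide family and ghrelin, 8 passed the minimum count. Of these, 2 were higher and 6 lower in the AE-F2 library, none past 2-fold, with a median log2 ratio of -0.09. Over all genes 50.0% were higher. The interval lay below equality for 3 of the receptor genes and above it for 0, against 13.4% of all genes each way. Glp1r, the receptor of glucagon-like peptide 1 on β-cells, was the most abundant at 690 and 642 CPM (log2 ratio -0.10, interval -0.14 to -0.06). Sstr3, the most abundant somatostatin receptor gene, was at 336 and 316 CPM (-0.08, -0.13 to -0.03), and Gipr at 85.8 and 79.8. Npy4r, the receptor for pancreatic polypeptide, had 0 and 1 count, and Npy2r had none in either.

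Of 10 genes for processing enzymes and their helpers 9 passed, with 5 higher, 4 lower and a median log2 ratio of 0.03. Pcsk2, the convertase that makes glucagon from its precursor, was at 4823 and 5010 CPM, a log2 ratio of 0.06 (0.05 to 0.07). Scg5, its chaperone, had a ratio of 0.07 (0.03 to 0.10), and Cpe, the carboxypeptidase that trims the cut ends, of 0.08 (0.07 to 0.09). Pcsk1, the convertase that makes glucagon-like peptide 1, had a ratio of -0.05 (-0.08 to -0.02), and its inhibitor gene Pcsk1n of -0.07. Dpp4, whose product inactivates the incretins, had a ratio of -0.23 (84.5 and 71.6 CPM). Qpct, which encodes an enzyme that cyclises the first residue of some peptides, had 61 and 62 counts and a ratio of -0.36 (-0.89 to 0.18).

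Of 10 genes related to transthyretin, 7 passed the minimum count. Of these, 1 was higher and 6 were lower, with a median log2 ratio of -0.10, and over all genes 50.0% were higher. The interval lay below equality for 2 (Slc16a10 and Dio1) and above it for 0, against 13.4% of all genes each way. Slc16a10, a transporter of thyroid hormone, was at 448 and 417 CPM (-0.10, -0.14 to -0.05), and Dio1, a deiodinase, at 105 and 97.5. Liver can also be a source of Ttr mRNA. Of 10 liver and serum protein genes, summed at 21.6 and 26.2 CPM, 4 passed the minimum count and 3 of these were higher, with a median log2 ratio of 0.35. The interval lay above equality for 1 of the 4 (Trf) and below it for 0. Ambp had 240 and 368 counts, Trf 74 and 134, Serpina1a 5 and 16, Alb 10 and 6, and Apoa1 0 and 6. Gut endocrine cells make Gcg, Pyy and Ghrl too, and of 8 genes listed for them Gip, Sct, Nts and Tph1 had no count in either library. Neurog3, a regulator of endocrine precursors, was the only one past the minimum count, at 80 and 101 counts, and Cck, Gast and Insl5 had at most 2.

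With 2 libraries, a likeness to Gcg can only be a like ratio. Of the genes averaging 1000 counts or more, the 5 nearest to Gcg in log2 ratio included Hnrnpdl (0.44), Tceal3 (0.44), mt-Nd3 (0.49) and B2m (0.50).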

How the data were processed

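Poly(A) RNA of islets was sequenced on an Illumina instrument. Each library's file, as the authors deposited it, holds estimated counts of genes, not scaled for depth or length. The paper's methods name HISAT2 for alignment, the submitters' processing notes name Bowtie2, RSEM and DESeq2, and the counter's settings, genome build and annotation are not given in the sources used here. Of 21899 Ensembl identifiers, 21806 matched a symbol (GENCODE M21, GRCm38).

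Counts were rounded and scaled with TMM (edgeR 4.0.16, R 4.3.3) on genes averaging 10 counts or more, the minimum for every count of genes. Ratios used a pseudocount of 0.5 and 95% Clopper-Pearson intervals for the part of each gene's reads that fell in AE-F2 (scipy 1.17.1), and CPM intervals are exact Poisson ones. Intervals of quotients within a library use the normal approximation on the log scale. Levels per kb use the longest GENCODE M21 transcript. A library at or below 3 counts gives no fold. Since 1 library per group was analysed, neither a model nor a p-value was possible. The method was tested on simulated data that held counting error only, with no spread between animals. Alternatives included DESeq2 1.42.0 size factors.

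The members and lists were chosen with earlier results of these data known. Named are the members, the β-cell reference, up to 4 of the most abundant genes of each list, genes past 2-fold, and the 5 genes nearest to Gcg in ratio. Any other gene was named for its role or after its values were seen. Some genes that this rule names are not reported here.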

Additional observations from a re-analysis of the deposited data

How the results depend on the processing

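No paired analysis was possible because 1 library per group was analysed and the groups share no replicate number among them. For the same reason no replicate could be left out. DESeq2 size factors, library totals, a pseudocount of 5, unrounded counts and thinning of the deeper library to the other's depth moved none of the 6 ratios beyond its counting interval. Gcg moved beyond its very narrow interval to 0.474 with totals without the 10 most abundant genes and to 0.466 with totals without the 6 genes, Ins1, Ins2 and Iapp, an alternative added after seeing the data. With trends with GC content and length removed over all genes kept, the ratios were 0.210 for Gcg, -0.045 for Ttr, -0.276 for Sst, -0.407 for Ppy and -0.227 for Pyy. With the trends fitted on genes averaging 1000 counts or more, added after seeing the data, they were 0.322 for Gcg, 0.056 for Ttr, -0.106 for Sst, -0.153 for Ppy and -0.004 for Pyy. Pyy thus changed sign in both of these settings and Ttr in the first, and Ghrl stayed within its interval. With the smaller limit of 25% higher or 20% lower in place of 2-fold, Gcg was past it upward and Ghrl downward, against 0 and 0, and over all genes 1545 and 933 were, against 430 and 89. Ghrl rests on 57 and 48 counts, and its depth limits what can be said of it.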

Other observations

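Among 20 other peptide hormone and neuropeptide genes, 7 had a mean of at least 10 counts, with 4 higher and 3 lower in the AE-F2 library and a median log2 ratio of 0.21. The median turned to -0.065 at a minimum mean of 1 count and to -0.060 at 100 counts, and the ratio of the summed counts of the list was -0.05. Vip, which encodes vasoactive intestinal peptide, a neuropeptide of the nerve fibres that reach islets, was the only one past 2-fold. Over all genes 3.16% were at least 2-fold higher. Vip had 101 and 387 counts (control-F2 first), a log2 ratio of 1.55 (1.24 to 1.89). Npy, which encodes neuropeptide Y, a relative of Ppy and Pyy, had 61 and 132 counts and a ratio of 0.73 (0.28 to 1.19). Ucn3, a β-cell peptide that drives somatostatin release, was at 556 and 519 CPM, and Pdyn, which encodes prodynorphin, at 86.0 and 82.2. Gip, Sct, Nts, Calcb and Nmu had no count in either library. Of 10 immune genes past the minimum count 6 had an interval above equality and 0 below it. Of 8 mesenchymal genes 6 were above and 1 was below (Acta2). Over all genes 13.4% were above and 13.4% below. The part of immune and mesenchymal cells in the values of this section was not tested.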
